A study of Mus musculus with 4 samples.

Results

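Axon guidance ligands and receptors were followed in the E18.5 organ of Corti, the hearing epithelium of the inner ear, after loss of the T-box transcription factor gene Tbx2. The 60 genes were chosen by symbol and comprise 13 Eph receptors, 8 ephrins, 7 secreted class 3 semaphorins, 13 membrane semaphorins, 8 plexins, 2 neuropilins, the netrin Ntn1 with 3 of its receptors, and 5 genes of the Slit and Robo families. The array carried 27487 gene symbols in all. RNA was compared on 4 dual-colour Agilent oligonucleotide arrays, and each array set a pool of Sox2-Tbx2LOF organs of Corti against a control pool of the same sex, so that n = 4 pools per genotype. Sox2-Tbx2LOF embryos carried CreERT2, a tamoxifen-activated recombinase, in the Sox2 locus together with 2 floxed Tbx2 alleles. Recombination was therefore driven in Sox2-expressing cells, and the knock-in also replaces 1 copy of Sox2. Controls lacked the recombinase and carried at least 1 floxed Tbx2 allele, the other allele being given as not determined in the deposited labels. Loss of Tbx2 and the knock-in therefore cannot be told apart in these pools. The dams of both genotypes received 4 mg tamoxifen at E16.5. The methods of the study describe the tissue as the basal part of the cochlear duct without spiral ligament and spiral ganglion, on an outbred NMRI background with a membrane reporter allele. The Sox2-Tbx2LOF pool was labelled with Cy3 on arrays 1 and 3 and with Cy5 on arrays 2 and 4. Arrays 1 and 2 held female pools, and arrays 3 and 4 male pools.

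Axon guidance molecules are cues and receptors that steer growing neurites, and most of them also regulate cell adhesion and tissue boundaries. Ephrins are bound to the membrane and signal through Eph receptor tyrosine kinases, often in both directions. Secreted class 3 semaphorins act through neuropilins, which bind the ligand, and plexins, which signal into the cell, whereas membrane semaphorins bind plexins directly. Netrin attracts or repels neurites through Dcc and the Unc5 receptors, and Slits act through Robo receptors. In the cochlea such cues are known to shape how afferent fibres of the spiral ganglion reach inner and outer hair cells.

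The median spot signal of the 4 arrays was 346 to 412 in the Sox2-Tbx2LOF channel and 315 to 411 in the control channel. The probe of the targeted gene Tbx2 had log2 ratios of Sox2-Tbx2LOF over control of −0.058, −0.24, −0.016 and −0.30 on arrays 1 to 4. This was lower on 4 of 4 arrays, but did not pass the correction over all probes (limma adjusted p = 0.313), and the channel levels of the 2 genotypes overlapped. Whether this probe lies in the deleted part of the gene was not determined, and cells without recombination also contribute RNA. For the same tamoxifen day the study shows no TBX2 protein in recombined hair and supporting cells at E18.5. Sox2, which carries the knock-in, was higher by 0.23 ± 0.087 log2 units (SD, n = 4), with a limma adjusted p of 0.0876. What the Sox2 probe reads from the knock-in allele was not determined. Between arrays of like dye orientation the ratios of all probes had an r of 0.43 to 0.46, and between swapped arrays one of −0.28 to −0.088, across probes that are not independent replicates. A dye term therefore stood in the fit.

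The array measured these genes with 89 probes of 60 bases, and each gene was read at its brightest probe. Of the 60 genes, 59 were well above background. Epha6, a receptor for A-type ephrins, was not well above background in either genotype on any array and was not tested. No sequence feature entered the choice of the genes, but the probes themselves differed in a way that bears on every value below. The brightest probes of Epha5, Sema6d, Sema4c and Ephb3 contain a GT dinucleotide repeat. The following stretches of these probes are shown because the repeat goes along with a large dye difference. They are read from the array files, with the uninterrupted run of alternating G and T in capitals.
Epha5 (A_55_P2062911, bases 28 to 57 of the probe): aaatTGTGTGTGTGTGTGTGTGTGcgtgcg
Sema6d (A_55_P2125351, bases 31 to 60): agaggggcgaGTGTGTGTGTGTGTGTGTGT
Sema4c (A_55_P1953866, bases 1 to 30): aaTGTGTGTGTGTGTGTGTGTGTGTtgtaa
Ephb3 (A_55_P2054332, bases 31 to 60): GTGTGTGTGTGTGTGTGTGTGTGTGTGTGT

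The whole run measures 20 bases in Epha5, 20 in Sema6d, 23 in Sema4c and 33 in Ephb3, of which 30 are shown. On mm9 the probes lie on chromosome 5 (84487348 to 84487407) for Epha5, chromosome 2 (124491609 to 124491668) for Sema6d, chromosome 1 (36605998 to 36606057) for Sema4c and chromosome 16 (21223165 to 21223224) for Ephb3. They start at base 4167, 4592, 3349 and 3932 of the respective transcript, and the array files do not state whether this is coding sequence or UTR. Further probes of Epha5 and Sema6d lie elsewhere in these genes and hold no such run, as the middle 30 bases of each show.
Epha5 (A_55_P2100425, bases 16 to 45): tgtttgtgctttcagtttgtgtacatgttt
Epha5 (A_55_P2062921, bases 16 to 45): tataaatatcatagtctcagcactgtcttc
Sema6d (A_55_P2076861, bases 16 to 45): ccttaaaacctgatgtgccaccaaagcctt

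At the repeat probe, Epha5 had log2 ratios of −0.74, 0.71, −0.67 and 0.77 on arrays 1 to 4. The sign followed the dye, since the Sox2-Tbx2LOF pool was in Cy5 on the 2 arrays with positive values. Sema6d behaved alike with −0.68, 0.67, −0.63 and 0.68, Sema4c with −0.65, 0.67, −0.50 and 0.68, and Ephb3 with −0.59, 0.47, −0.42 and 0.51. The dye term, which is the mean log2 ratio of Cy5 over Cy3, was 0.72 for Epha5, 0.66 for Sema6d, 0.63 for Sema4c and 0.50 for Ephb3. Averaged over the swap, the Sox2-Tbx2LOF over control ratio was 0.016 for Epha5, 0.012 for Sema6d, 0.051 for Sema4c and −0.0073 for Ephb3. None of the 4 probes differed between genotypes beyond the spread left after the dye term. How far the signal of a repeat probe comes from its own gene was not tested. In the further probes the dye term was 0.042 and 0.077 for Epha5 and 0.054 for Sema6d. Sema4c and Ephb3 had no further tested probe.

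The same was seen over the whole array. Of the 28104 probes tested on the array, 108 held a GT run of 12 or more bases, and 101 of these (93.5%) had a dye term with limma adjusted p under 0.05. Their median dye term was 0.65. Among the 27996 probes without such a run, 3.35% passed that threshold, and the median size of the dye term was 0.068. All 52 probes with a run of 20 or more bases passed, whereas of 280 probes with another tandem repeat 7.5% did. The 4 guidance probes thus sat within the range of other GT probes, and of the remaining 79 tested guidance probes 1 passed, that of Sema6b with −0.32. Read at the brightest probe, 5 of 59 guidance genes had a dye term with adjusted p under 0.05, against 4.21% of all genes tested.

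**Figure D1:**
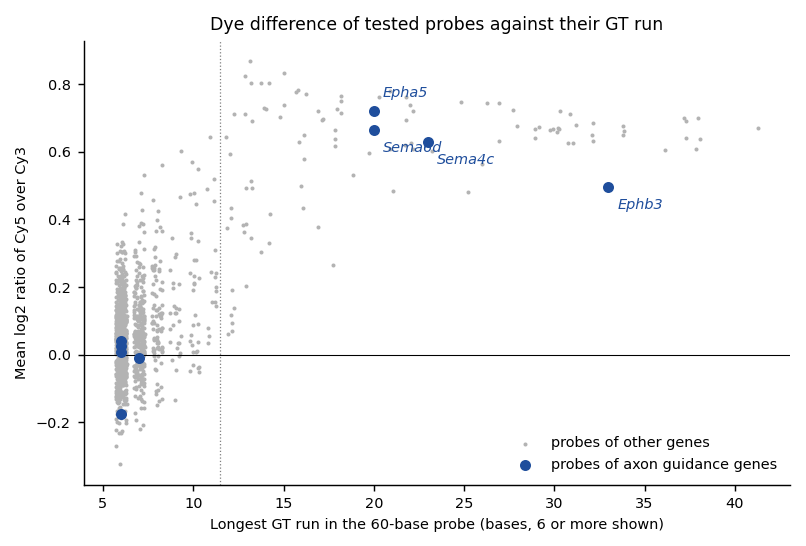
Dye term (mean log2 ratio of Cy5 over Cy3 over 4 arrays) against the longest run of alternating G and T in the 60-base probe, for tested probes with a run of 6 or more bases. Probes with long runs sit above 0, around 0.65, and the probes of Epha5, Sema6d, Sema4c and Ephb3 (labelled, 0.50 to 0.72) lie among those of other genes (grey). The dotted line marks the limit of 12 bases.

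The probe that stood for Dcc, the attractive netrin receptor, has another peculiarity. It carries a GAA repeat of 51 bases (40 of its 60 bases are A and 19 are G), and the array files place it on mm9 chromosome 7 (68417162 to 68417221), while the RefSeq table places Dcc on chromosome 18. The other 2 Dcc probes on the array were not well above background in either genotype on any array. The signal listed for Dcc is therefore uncertain, and no direction for Dcc is drawn from it. For every other guidance probe the chromosome in the array files and in the RefSeq table was the same.

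No axon guidance gene differed between Sox2-Tbx2LOF and control pools by the criteria used (limma adjusted p under 0.05 and at least 1.5-fold). Of all 19984 genes tested at their brightest probe, 57 were called, or 0.285%. Without the minimum fold 0 of the 59 guidance genes had an adjusted p under 0.05, against 1.16% of all genes, and the smallest adjusted p of a guidance gene was 0.272. Before adjustment, 8 of 59 guidance genes had a p under 0.05, 6 with a higher and 2 with a lower ratio, where 7.88% of all genes reached that level. Without Dcc, whose probe is uncertain, these were 7 of 58, 5 with a higher ratio. Epha5, Sema6d, Sema4c and Ephb3, read at probes with a GT repeat, stay in these counts and in those below. The RNA came from all cells of the dissected tissue together, so that fewer cells of a type and less RNA per cell cannot be told apart, and a difference confined to few cells is diluted.

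The intervals describe the ratio at each probe in the whole tissue, and do not bound a difference confined to few cells. The mean log2 ratio of the 59 genes ran from −0.14 for Sema3d to 0.21 for Plxna2, and the 95% intervals of all of them stayed between −0.32 and 0.36, the latter being 1.28-fold. For 57 of 59 genes the whole interval lay within 0.32 log2 units of 0 in both directions, as it did for 95.7% of all genes tested. The exceptions were Plxna2 and Dcc. The median log2 ratio was 0.024 with 41 genes higher (40 without Dcc) and 18 lower, and that of all genes was 0.00198 with 10327 higher and 9657 lower. By array the median of the guidance genes was 0.00056, −0.016, 0.042 and 0.051, a spread of 0.032 (SD), and 30, 27, 36 and 36 of the 59 genes were higher on arrays 1 to 4, with the larger counts on the 2 arrays of male pools. The ratio had the same sign on 4 of 4 arrays for 4 guidance genes (Efnb2, Sema5b, Plxna2 and Plxna4, all higher), compared with 9.37% of all genes. For 1 gene, Plxna2, the levels of the 4 Sox2-Tbx2LOF pools and the 4 control pools did not overlap, and 2.82% of all genes had this property.

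**Figure D2:**
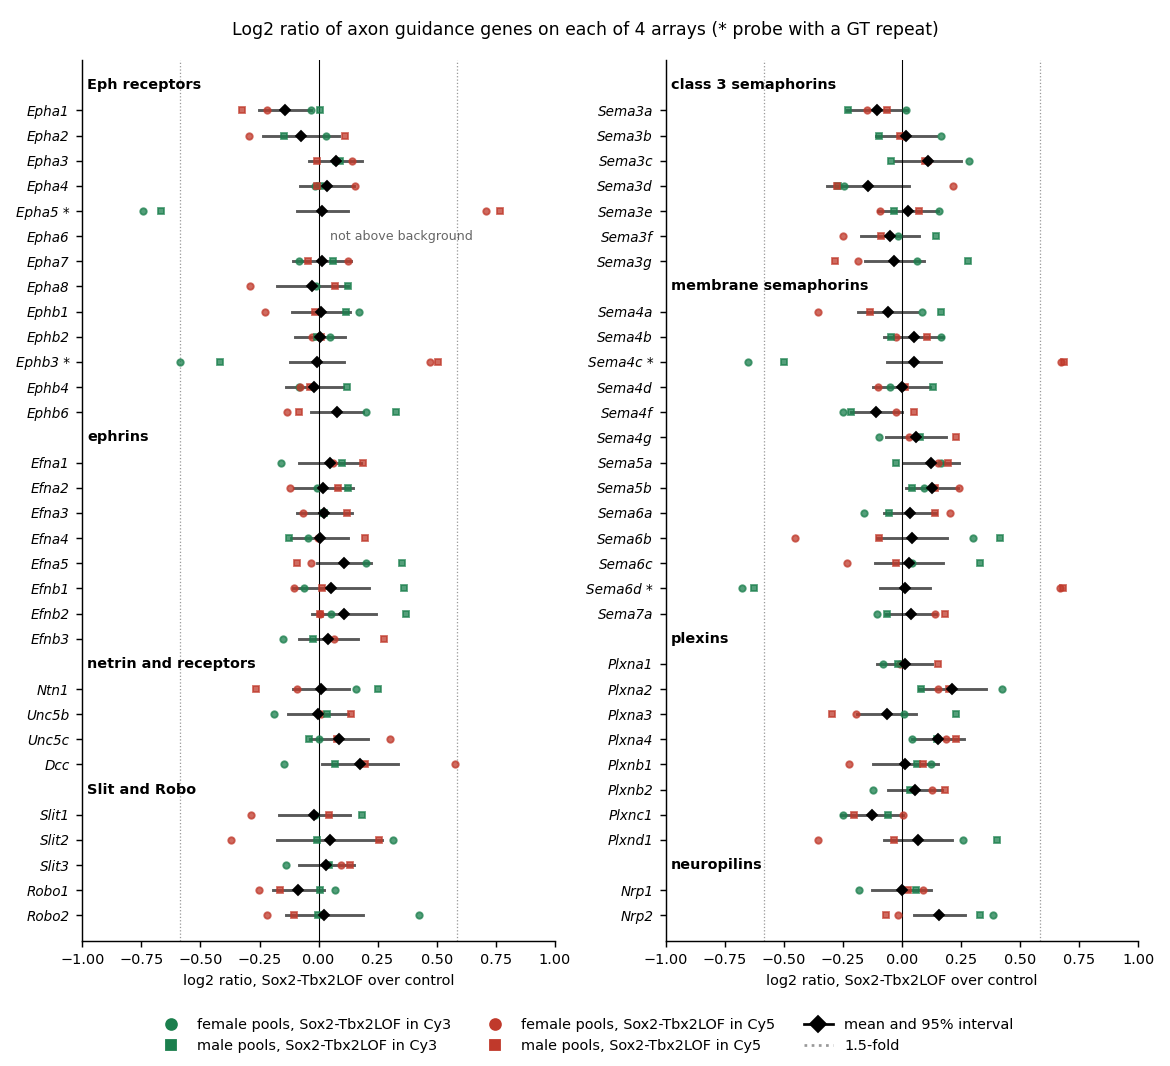
Log2 ratio of Sox2-Tbx2LOF over control for the 60 axon guidance genes at their brightest probe, by family. Circles and squares are arrays of female and male pools, green and red mark the dye of the Sox2-Tbx2LOF pool, and diamonds with bars give the mean and 95% interval from limma. No mean reaches the dotted lines at 1.5-fold, and the arrays of the 4 genes with a GT repeat (asterisk) split by dye.

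Among the receptors of semaphorins, plexins held the gene with the highest ratio. Plxna2, a co-receptor with neuropilins for class 3 semaphorins, was measured by a probe on mm9 chromosome 1 (196642958 to 196643017), far along its transcript (base 10930). The log2 level was 13.35, 13.21, 13.18 and 13.25 in the Sox2-Tbx2LOF pools of arrays 1 to 4 and 12.92, 13.06, 13.10 and 13.06 in the control pools. Every Sox2-Tbx2LOF pool was above every control pool, by a narrow margin, and array 1 had the largest difference. The log2 ratios were 0.42, 0.15, 0.081 and 0.20, with a mean of 0.21 ± 0.15 (SD, n = 4, limma adjusted p = 0.272), equal to 1.16-fold, which did not pass the correction, and without array 1 the value was 0.13. Plxna4, which also serves class 3 semaphorins, had log2 ratios of 0.044, 0.19, 0.15 and 0.23, with a mean of 0.15 ± 0.079 (SD, n = 4, limma adjusted p = 0.341). Its pools overlapped, from 12.57 to 12.77 in Sox2-Tbx2LOF and from 12.38 to 12.62 in control pools. The lowest value of the family was that of Plxnc1, the receptor of Sema7a, with −0.25, 0.0024, −0.059 and −0.20 and a mean of −0.13 ± 0.12. The family had 6 of 8 genes higher and a median of 0.034.

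Neuropilins bind class 3 semaphorins and VEGF. Nrp2 had log2 levels of 14.42, 14.26, 14.44 and 14.22 in Sox2-Tbx2LOF pools and of 14.03, 14.28, 14.11 and 14.29 in control pools at its brightest probe (mm9 chromosome 1, 62865129 to 62865188). The ratios of 0.38, −0.016, 0.33 and −0.066 were high on the 2 arrays with the Sox2-Tbx2LOF pool in Cy3 and near 0 on the others. With a dye term of −0.20 the mean was 0.16 ± 0.23 (SD, n = 4, limma adjusted p = 0.285). A further Nrp2 probe in another transcript (mm9 chromosome 1, 62843298 to 62843357) had no such dye difference (−0.013). Here the ratios were 0.086, 0.14, 0.32 and 0.22, higher on 4 of 4 arrays, and the levels of 10.37 to 10.59 in Sox2-Tbx2LOF and 10.25 to 10.29 in control pools did not overlap. Its mean of 0.19 ± 0.10 had a limma adjusted p of 0.265, so neither probe passed the correction. Both probes read the same pools and gave a value of about the same size. At the brightest probe 2.82% of all genes had pools without overlap, and the share among further probes was not counted. Nrp1 had ratios of −0.18, 0.087, 0.059 and 0.026, with a mean of −0.0021.

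**Figure D3:**
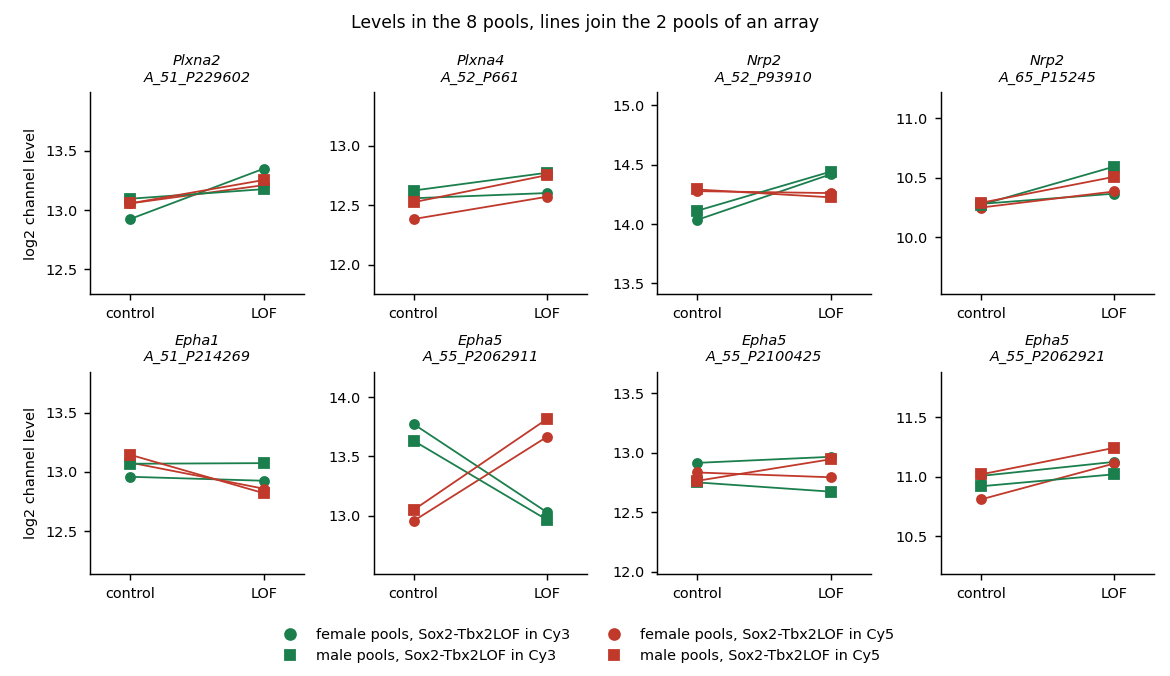
Log2 channel level of Plxna2, Plxna4, Nrp2 (2 probes), Epha1 and Epha5 (3 probes) in the control and Sox2-Tbx2LOF pools, where a line joins the 2 pools of an array and each panel spans the same range. Lines rise on all 4 arrays for Plxna2, Plxna4, the second Nrp2 probe and the third Epha5 probe, by less than 0.5 log2 units, and cross by dye for the first Epha5 probe.

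The secreted class 3 semaphorins, which are mostly repulsive cues, had 3 of 7 genes higher and a median log2 ratio of −0.033, with none at an unadjusted p under 0.05. Sema3d was lowest, with −0.25, 0.22, −0.27 and −0.27 and a mean of −0.14 ± 0.24 (SD, n = 4, limma adjusted p = 0.883). It was lower on 3 arrays and higher on array 2, and its pools overlapped (8.99 to 9.46 in Sox2-Tbx2LOF and 9.24 to 9.46 in control). In the fit with the dye term, its value was −0.021 without array 4 and −0.27 without array 2. Without array 4, array 2 alone stands for its dye orientation and weighs as much as arrays 1 and 3 together. Sema3a, the founding repellent of the class, had ratios of 0.015, −0.15, −0.23 and −0.066, with a mean of −0.11 ± 0.11. The highest was Sema3c at 0.28, 0.11, −0.048 and 0.097, with a mean of 0.11 ± 0.14. Ratios of Sema3b, Sema3e, Sema3f and Sema3g lay between these, with means of 0.017, 0.026, −0.052 and −0.033.

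Membrane semaphorins had 10 of 13 genes higher and a median of 0.038. Sema5b was higher on 4 of 4 arrays with 0.094, 0.24, 0.042 and 0.14, and a mean of 0.13 ± 0.084 (SD, n = 4, limma adjusted p = 0.532). Its 2 further probes gave means of 0.10 and 0.057. Sema5a, its closest relative, had 0.16, 0.15, −0.026 and 0.20, with a mean of 0.12 ± 0.10. For both genes the pools of the 2 genotypes overlapped. The lowest of the family was Sema4f with −0.25, −0.025, −0.21 and 0.051, and a mean of −0.11 ± 0.14. Sema4c and Sema6d belong to the repeat probes above, and Sema6b, with 0.30, −0.45, 0.41 and −0.098, also followed the dye. The GPI-anchored Sema7a had a mean of 0.038 ± 0.14.

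Of the Eph receptors 7 of 12 tested were higher, with a median of 0.0075. Epha1 was lowest with log2 levels of 12.93, 12.86, 13.07 and 12.82 in Sox2-Tbx2LOF and 12.96, 13.08, 13.07 and 13.14 in control pools. Its ratios of −0.033, −0.22, 0.0052 and −0.32 were negative mainly on the 2 arrays with the Sox2-Tbx2LOF pool in Cy5, and the mean was −0.14 ± 0.16 (SD, n = 4, limma adjusted p = 0.409). The highest was Ephb6, a receptor without kinase activity, with 0.20, −0.14, 0.33 and −0.083 and a mean of 0.078 ± 0.22. Epha4, which binds ephrins of both classes and is known to act in cochlear innervation, had −0.015, 0.15, 0.0064 and −0.0054, with a mean of 0.035 ± 0.080. Means of Epha2, Epha3, Epha7, Epha8, Ephb1, Ephb2 and Ephb4 ran from −0.074 to 0.073.

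For Epha5 the probes did not give the same value. Against 0.016 at the repeat probe, the means were 0.029 at A_55_P2100425 and 0.19 at A_55_P2062921. At the latter the log2 level was 11.13, 11.11, 11.02 and 11.24 in Sox2-Tbx2LOF and 11.01, 10.81, 10.92 and 11.02 in control pools, and the genotypes did not overlap, by a very narrow margin. The ratios of 0.12, 0.30, 0.10 and 0.22 were higher on 4 of 4 arrays, and the mean of 0.19 ± 0.095 (SD, n = 4) had a limma adjusted p of 0.167. This probe was designed on another transcript than the other 2 (mm9 chromosome 5, 84494886 to 84494945), and its difference of 0.17 from the brightest probe was the largest between probes of any guidance gene. Pools without overlap were seen for 2.82% of all genes at the brightest probe, and were not counted over further probes.

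All 8 ephrins had a positive mean, from 0.0060 for Efna4 to 0.11 for Efnb2, with a median of 0.045, and none reached an unadjusted p under 0.05. Efnb2, a transmembrane ligand of EphB receptors and Epha4, had 0.052, 0.0077, 0.37 and 0.0040, with a mean of 0.11 ± 0.18 (SD, n = 4, limma adjusted p = 0.935). Without array 3 the value was 0.029, and the further probe of Efnb2 gave 0.046. Efna5, a GPI-anchored ligand, had 0.20, −0.031, 0.35 and −0.091, positive where the Sox2-Tbx2LOF pool was in Cy3, with a mean of 0.11 ± 0.21 (SD, n = 4, limma adjusted p = 0.769). The remaining ephrins were between 0.020 and 0.052 apart from Efna4.

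Ntn1, the netrin of the set, had log2 ratios of 0.16, −0.092, 0.25 and −0.27, with a mean of 0.012 ± 0.24. Its repulsive receptors Unc5b and Unc5c had means of −0.0027 ± 0.14 and 0.086 ± 0.15. The probe listed for Dcc had −0.15, 0.58, 0.070 and 0.20, with a mean of 0.17 ± 0.30 (SD, n = 4, limma adjusted p = 0.627). Of the Slit and Robo genes 3 of 5 were higher, with a median of 0.025. Slit2, a secreted repellent, varied most with 0.32, −0.37, −0.0079 and 0.25 and a mean of 0.047 ± 0.31. Its receptor Robo1 had the lowest mean with 0.070, −0.25, 0.0048 and −0.16, giving −0.085 ± 0.15 (SD, n = 4, limma adjusted p = 0.940), and Robo2 had 0.025 ± 0.28. The means of Slit1 and Slit3 were −0.018 and 0.034.

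Further tested probes were available for 20 genes, 24 probes in all. Of these 0 had an adjusted p under 0.05, and the median difference from the brightest probe was 0.043. The sign was opposite for 6 probes, which belonged to Epha7, Ephb4, Robo2, Sema3g, Sema6a and Sema6c, genes whose brightest probe had a mean between −0.033 and 0.033.

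**Figure D4:**
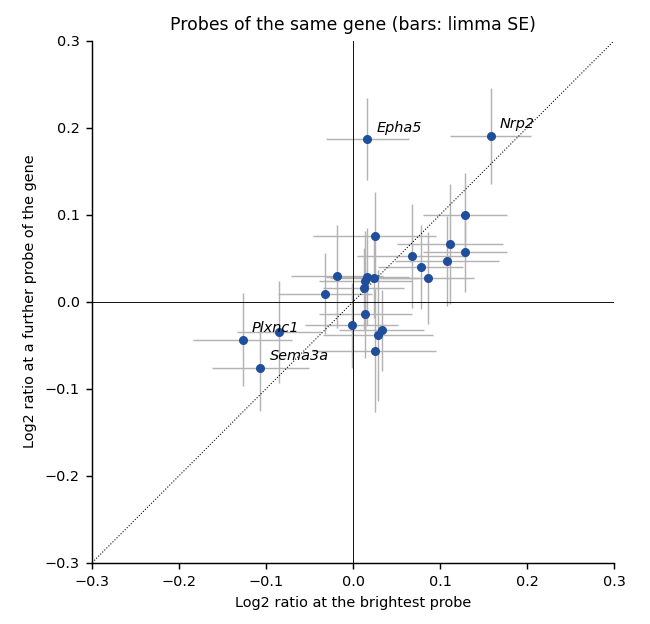
Mean log2 ratio of Sox2-Tbx2LOF over control at the brightest probe (horizontal) and at each of 24 further probes (vertical) of 20 axon guidance genes, with limma SEs. The dotted line marks equality, Nrp2 lies high on both axes, and 1 Epha5 probe is the farthest from the line (0.17).

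The genotype effect was compared between sexes with an interaction term on the same arrays. No guidance gene reached an adjusted p under 0.05, as was the case for all genes (0%), and 2 of 59 had an unadjusted p under 0.05, against 396 of all 19984 genes. Slit1 had a mean ratio of −0.15 on the 2 female and 0.11 on the 2 male arrays, a difference of −0.26 (limma adjusted p = 1.00). Sema6c had −0.097 and 0.15, a difference of −0.25. The level itself, female against male pools, had an adjusted p under 0.05 for 0 of 59 genes, where 0.05% of all genes did. Sema4a, with a mean log2 level of 11.05 in the 4 female and 10.76 in the 4 male pools, and Slit2, with 14.20 and 13.96, had the smallest p (limma adjusted p = 0.694 for both). One of the 4 female pools of Sema4a, at 10.78, lay within the male range of 10.63 to 10.87.

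Other genes of guidance pathways were read from 3 lists of 68 genes, of which 65 were tested and 0 were called, against 0.285% of all genes. An adjusted p under 0.05 was seen for 2 of 65, against 1.16% of all genes. The levels of the 2 genotypes did not overlap for 5 of 65, against 2.82% of all genes. Ntf3, the neurotrophin that sustains spiral ganglion neurons and is made by cells of the organ of Corti, had log2 levels of 12.88, 13.05, 13.07 and 12.93 in Sox2-Tbx2LOF and 13.24, 13.30, 13.34 and 13.35 in control pools. Every Sox2-Tbx2LOF pool was below every control pool. The ratios of −0.36, −0.25, −0.27 and −0.42 gave a mean of −0.33 ± 0.080 (SD, n = 4, limma adjusted p = 0.0262), so Ntf3 fell to 0.80 of the control level, less than the 1.5-fold asked for a call. Rnd1, a small GTPase that binds plexins, had levels of 9.85, 9.73, 10.08 and 9.72 in Sox2-Tbx2LOF and 9.47, 9.63, 9.49 and 9.60 in control pools, again without overlap. Its ratios of 0.38, 0.10, 0.59 and 0.11 gave a mean of 0.30 ± 0.24 (SD, n = 4, limma adjusted p = 0.0436), or 1.23-fold higher, with the larger values on the 2 arrays of 1 dye orientation. Whether the adjusted p of either gene fell under 0.05 depended on the processing and on single arrays. Without array 3 neither passed (adjusted p = 0.0717 for Ntf3 and 0.191 for Rnd1), and without array 1 Ntf3 did not (0.118).

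The list of other guidance ligands and receptors had 22 tested genes with a median of 0.051 and 17 higher. The nearest to the threshold was Unc5a, a netrin receptor, with 0.20, 0.21, 0.46 and 0.21, higher on 4 of 4 arrays, and a mean of 0.27 ± 0.13 (SD, n = 4, limma adjusted p = 0.0844), at a probe with a TA repeat of 13 bases. Draxin, a repellent that binds Dcc, followed with a mean of 0.16 ± 0.16, and had 0.36 with the ratio of the scanner software (adjusted p = 0.0559). The 36 intracellular effectors had a median of 0.023, and Rnd1 was the only one past an adjusted p of 0.05. Dpysl5, a collapsin response mediator, had −0.54, 0.54, −0.39 and 0.61 at a probe with a GT run of 11 bases, and a mean of 0.055. Among the 8 neurotrophins and receptors Bdnf, the other neurotrophin of the cochlea, had −0.058 ± 0.054, and the receptors Ntrk2 and Ntrk3 had 0.054 and 0.052. Robo3 and Unc5d were not well above background and not tested.

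Guidance genes are also expressed by neurons, glia, mesenchyme and vessels that may remain in the dissected tissue. The marker genes chosen for these cells were all well above background. Whether hair or supporting cells express the same markers was not tested, so their signal alone does not show that such other cells remained. Of 8 neuron markers 7 were higher (median 0.031 on the log2 scale), and the summed level was 135734 to 140114 in Sox2-Tbx2LOF and 131722 to 135415 in control pools. Of 6 glia markers 4 were higher with a median of 0.012 (summed level 173336 to 185618 and 166053 to 195166). Of 7 mesenchyme markers 5 were higher with a median of 0.065 (145167 to 152931 and 124127 to 161991), and of 6 vessel markers 6 were higher with a median of 0.076 (28238 to 29166 and 26232 to 28122). None of these 27 genes had an adjusted p under 0.05. The summed levels of the neuron and vessel markers did not overlap between genotypes, being narrowly higher in Sox2-Tbx2LOF pools. Such a sum is weighted towards the brightest genes. Singly, the pools did not overlap for 0 of 8 neuron markers and 1 of 6 vessel markers, against 2.82% of all genes. Of the neuron markers 0 had the same sign on 4 of 4 arrays. Among the mesenchyme markers the highest log2 ratio was 0.34 and the smallest limma adjusted p was 0.0614. The labelled tissue was present, since 7 of 7 hair cell markers and 6 of 6 supporting cell markers were well above background. Of the former 4 were higher (median 0.041 on the log2 scale), and of the latter 5 (median 0.091). The hair cell marker Otof, which codes for the synaptic protein otoferlin, was lower with a mean of −0.40 ± 0.19 (SD, n = 4, limma adjusted p = 0.010). The part of other cell types in the values of Plxna2, Nrp2, Unc5a, Rnd1 and Ntf3 was not tested.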

How the data were processed

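The authors scanned the arrays and deposited spot intensity values from Agilent Feature Extraction 10.7.3.1, not normalized, with a log10 ratio of red over green that the scanner software had made. They also deposited signed fold changes in the series matrix by steps not given in the sources used here. The direction of these fold changes matched the ratios computed below from the spot intensities (r of 0.937 to 0.954 across tested probes).

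Background was corrected with normexp (offset 50) and ratios by loess within arrays in limma 3.58.1 (R 4.3.3). Spots that the scanner software marked as outliers (3.23% to 3.56%) and control spots were dropped, the remaining spots of a probe were averaged, and log2 ratios were turned to Sox2-Tbx2LOF over control. Loess assumes that most genes do not change, and the offset pulls dim ratios towards 0. Probes well above background in more than 0.5 of their spots on at least 3 of 4 arrays in either genotype were tested (28104), with lmFit, eBayes, a dye term and Benjamini-Hochberg adjustment over all of them. Tests are two-sided. Intervals are at 95% and not adjusted. Channel levels were taken after quantile normalization of brightness between arrays, and they are not compared between probes. The number of arrays limits the precision. The p-values rest on the spread of the ratio between arrays after the dye term, moderated over all tested probes. The SD printed beside a mean still holds the dye difference. Values without a single array come from the fit with the dye term and are not plain means. There the only array left of a dye orientation weighs as much as the others together.

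The members and lists were chosen with earlier results of these data known, and the repeat definition and the windows shown were chosen after seeing the data. Named genes were the 15 with the smallest p, the highest and lowest of each family, genes with further probes of opposite sign, those with the smallest p for sex, and untested members; the remaining genes with a GT repeat or named for background were added after their values were seen. The methods of the study use SAM, which was run as an alternative with 70 regroupings. Alternatives covered the background, normalization, probe filter, dye term, unpaired channels and single arrays. Of the 3 untested genes of the pathway lists, 1 is not reported here.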

Additional observations from a re-analysis of the deposited data

Results flagged for a closer look

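Of 59 axon guidance genes, 4 had 1 array far from the other 3 by Dixon's ratio at its 95% critical value. For independent normal values the rule flags about 1 in 20 groups. The ratios used still hold the dye difference, so this rate need not apply to them. Efnb2 had a log2 ratio of 0.369 on array 3 against 0.0040 to 0.052 on the others. Sema3d was at 0.217 on array 2, while the other arrays lay between −0.27 and −0.25. Plxnb1 had −0.224 on array 2 against 0.064 to 0.12. Epha4 had 0.155 on array 2 against −0.015 to 0.0064.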

How the results depend on the processing

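Under all 16 alternatives 0 of the axon guidance genes were called and 0 had an adjusted p under 0.05 (smallest 0.0601, Sema3d without replicate 2), and SAM, which called 59 probes, called none of them. Their number with an unadjusted p under 0.05 was 2 to 10, and their median log2 ratio lay between −0.0045 and 0.053. With repeat-free probes, an alternative chosen after seeing the data, 56 genes were tested. Of the 20 guidance genes followed singly, 4 changed sign under at least 1 alternative. Nrp1 became 0.024 with median centring, 0.0071 with the scanner ratio, 0.011 with the series matrix, and single replicates left out gave −0.062 to 0.058 (positive without 1 or 4, 0.013 for the latter). Unc5b became 0.0074 and 0.0099 with the scanner ratio and the series matrix, and −0.059 to 0.054 without single replicates (positive without 1 or 2, 0.029 for the latter). Efna4 became −0.0041 with the series matrix, and −0.044 to 0.055 without single replicates (−0.014 without 1, −0.044 without 4). Slit2 ran from −0.11 to 0.20 without single replicates (−0.033 without 1, −0.11 without 4).

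The count of pathway genes with an adjusted p under 0.05 was 2. It was 0 without the dye term, with the scanner ratio, with the series matrix and with the channels as 8 unpaired pools, and 1 with median centring and with all probes tested. Leaving out single replicates gave 0 to 2. The adjusted p of Ntf3 ran from 0.00571 to 0.353 and that of Rnd1 from 0.0340 to 0.530 over the alternatives. Unc5a reached 0.0482 without replicate 1. These alternatives for the pathway genes were added after seeing the data, and the cause was not tested. The sex by genotype term was not run without single replicates, since no residual degrees of freedom remain. The fit on the ratio of the 2 pools of an array is itself the paired analysis, and the 8 unpaired pools are its counterpart.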
